A study of Mus musculus with 12 samples.

Results

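The 4 Id genes of the mouse, Id1, Id2, Id3 and Id4, were compared in the R1 line, embryonic stem cells first grown out of a mouse blastocyst, between RNAs labelled as differentiated (embryoid bodies) and RNAs labelled undifferentiated. The platform annotation gave 8 probe sets a single symbol of this family, of 45265 probe sets on a pair of Affymetrix expression arrays, MOE430A (called array A) and its companion MOE430B (array B), which between them named 18194 genes. All 8 lie on array A, with 1 for Id1, 3 for Id2, 1 for Id3 and 3 for Id4, and 0 probe sets named an Id gene beside another gene. The members were chosen by family name, with the measured differences between the 2 groups already known, so their values are given as a description with no test.

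Each group had 3 RNAs, here D1 to D3 for differentiated and U1 to U3 for undifferentiated. The labels list the same culture for both groups, 5 days in bacterial Petri dishes in D-MEM with fetal bovine serum, name no LIF or BMP supplement, and estimate a purity of 95% for the undifferentiated cells. Embryoid bodies are floating clumps of stem cells that start to form the cell layers of the early embryo. How the cultures differed thus rests on the group names. The labels do not state whether replicate RNAs had cultures of their own, so SDs and p-values cover only the scatter of these RNAs, and it may be technical. The genotype is that of the unmodified R1 line in both groups as far as the labels say.

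Id proteins carry a helix-loop-helix domain without the adjoining basic region that contacts DNA. They pair with E proteins, the widely expressed basic helix-loop-helix factors encoded by Tcf3, Tcf4 and Tcf12, and the resulting dimers cannot bind DNA, so E proteins and their tissue-specific partners are held inactive. Transcription of Id genes is a well known early response to bone morphogenetic proteins (BMPs) acting through SMAD1, SMAD5 and SMAD4, and in mouse embryonic stem cell culture BMP with induced Id proteins is known to support self-renewal beside LIF.

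Values are the deposited MAS5 signals, on a linear scale on which every array has a 2% trimmed mean close to 1500.5. Differences are on the log2 scale, as differentiated minus undifferentiated, after a floor at about 96 deposited units, below which the order of values was not read. On array A, D1 had the lowest median correlation with the other arrays (0.881, against 0.912 to 0.922 for the others). It also had the highest log2 ratio of 3' to 5' actin control signal (0.70, against 0.13 to 0.31), a sign of lower RNA integrity. All differentiated hybridisations of array A ran on 1 fluidics station and all undifferentiated ones on another, so the station cannot be told apart from the group. On array A, U2 and U3 came from a second array lot, while U1 shared lot 1 with the differentiated RNAs, so Id differences are also given against U1 alone. On array B, U2 had the lowest median correlation (0.697, against 0.81 to 0.852), which limits the genes read from that array. There the differentiated RNAs and U1 ran on 1 station, and U2 and U3 on the other.

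Id1 and Id3 were the members that differed most. The Id1 signal was 8659, 5899.9 and 5879 in D1, D2 and D3 and 2484, 1909.8 and 2612 in U1, U2 and U3. All 3 differentiated RNAs lay above all 3 undifferentiated ones, the lowest of the former 2.25-fold above the highest of the latter, with D1 the highest. The mean log2 signal was 11.12 ± 0.32 against 9.59 ± 0.24 (SD, n = 3 each), a difference of 1.53 ± 0.20 (SE) or 2.89-fold. Against U1 within lot 1 the difference was 1.43, and without D1, the RNA that stands apart, it was 1.35.

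The Id3 signal was 4494, 4312 and 3707 in D1 to D3 and 1929.9, 1447 and 1802 in U1 to U3. Again the groups did not overlap, and the lowest differentiated value was 1.92-fold above the highest undifferentiated one. The mean log2 signal was 10.44 ± 0.15 against 9.16 ± 0.22 (SD, n = 3 each), a difference of 1.28 ± 0.18 (SE) or 2.43-fold. Against U1 within lot 1 it was 1.11. D1 was highest for both genes, with a value above the undifferentiated mean of 1.90 for Id1 and 1.39 for Id3 on the log2 scale. D3 was lowest for Id3, at 1.11, while for Id1 D2 and D3 were nearly equal, both at 1.35.

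Id4, an inhibitor best known from the developing brain, had a smaller difference that its probe sets did not show alike. The brightest, 1423260_at, gave 1119, 1213 and 1308 in D1 to D3 and 830.2, 793.9 and 690.1 in U1 to U3. The groups did not overlap, with mean log2 signals of 8.66 ± 0.11 and 8.00 ± 0.14 (SD, n = 3 each), a difference of 0.66 ± 0.27 (SE) or 1.57-fold, and 0.54 against U1. Probe set 1423259_at gave 26.3 in D1, below the floor, but 572.4 in D2 and 564.7 in D3, against 259.2, 171.3 and 456.2 in U1 to U3. D1 alone was the lowest of all 6 there, and the difference of 0.21 ± 0.77 (SE) became 1.06 without it. Probe set 1450928_at gave 210.8, 261.9 and 403.3 against 249.5, 233.1 and 38.2, with U3 below the floor and overlapping groups (0.66 ± 0.68, SE, and 0.22 without U3). All 3 probe sets are annotated to the same expressed sequence tag.

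Id2, an inhibitor that besides E proteins is known to bind the retinoblastoma protein, had overlapping groups on each of its 3 probe sets. The brightest, 1422537_a_at, gave 1166, 598.1 and 1127 in D1 to D3 and 419.9, 849.3 and 811.9 in U1 to U3, so D2 was below both U2 and U3, and U1 was the lowest of the 6. Its difference of 0.48 ± 0.40 (SE) was 1.14 against U1 within lot 1 and 0.15 without U1. Probe set 1435176_a_at gave 654.0, 475.6 and 969.3 against 640.5, 636.4 and 622.4. The undifferentiated RNAs were nearly equal there (SD 0.02 on the log2 scale) and the differentiated ones lay on both sides of them, with a difference of 0.08 ± 0.37 (SE) that turned to -0.18 without D3. Probe set 1453596_at gave 244.3, 215.4 and 370.8 against 50.1, 314.7 and 43.5, with U1 and U3 below the floor and U2 above both D1 and D2 (0.92 ± 0.74, SE, and 0.63 without U1). D2 was the lowest differentiated RNA on all 3 Id2 probe sets.

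**Figure D1:**
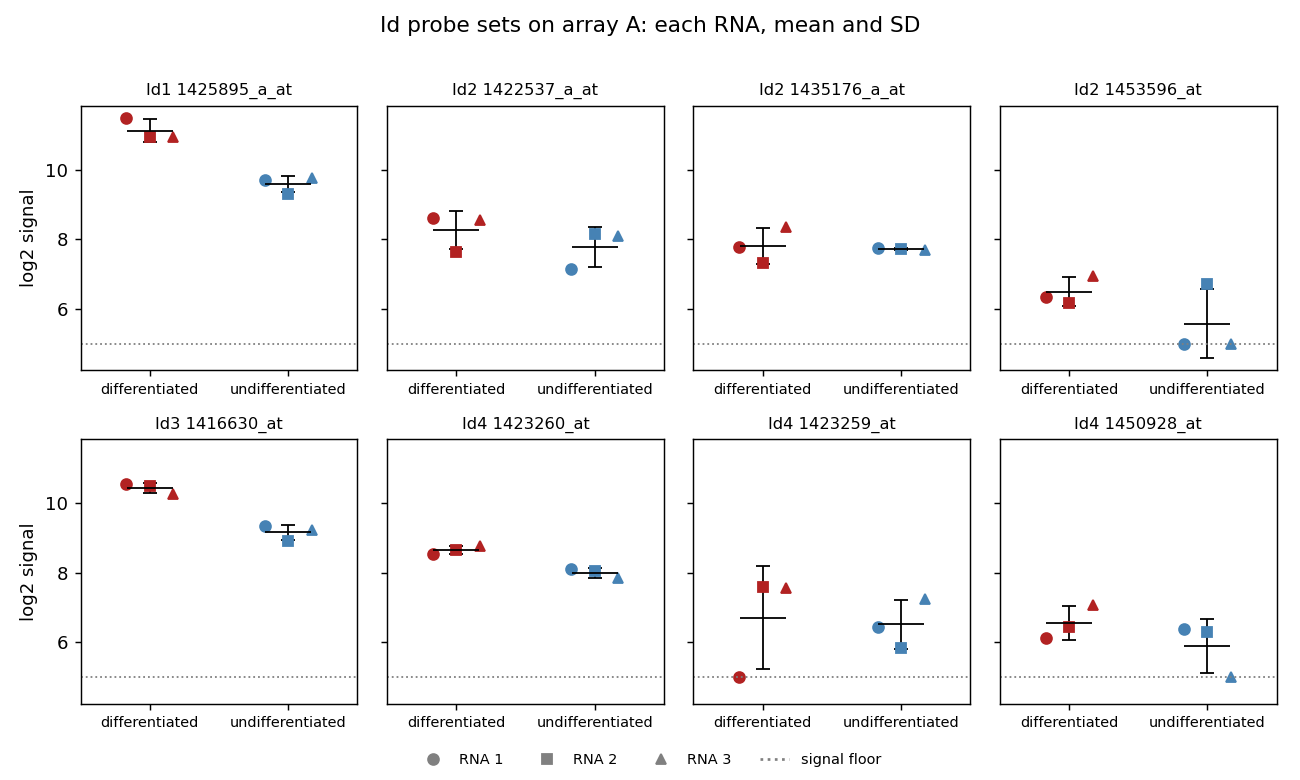
Log2 signal (vertical axis) of the 8 Id probe sets on array A in each differentiated (red) and undifferentiated (blue) RNA. Bars are the mean and SD of 3 RNAs and the dotted line is the signal floor. The groups are apart for Id1, Id3 and Id4 1423260_at and overlap for the other 5, where 3 probe sets have an array at the floor.

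All 8 Id probe sets passed the filter on low signal, and all 8 had a higher mean in the differentiated RNAs. The groups were apart for 3 of 8, differentiated above undifferentiated, as they were for 11.0% of the 18025 probe sets tested on array A. Id1 and Id3, 2 of 8, were at least 2-fold higher, against 4.74% of those tested. Because this contrast chose the members, nothing is read from these counts. In the order of all 18025 differences, 261 probe sets (1.45%) lay above Id1 and 440 (2.44%) above Id3. For Id4 1423260_at the share above was 11.1%, for Id2 1422537_a_at 17.0% and for Id2 1435176_a_at 44.1%. The 3 probe sets with an array at the floor are given no place in this order. Of these, Id2 1453596_at and Id4 1450928_at had undifferentiated means of 5.57 and 5.89, under the filter's mean of 6, and passed it through the differentiated RNAs.

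**Figure D2:**
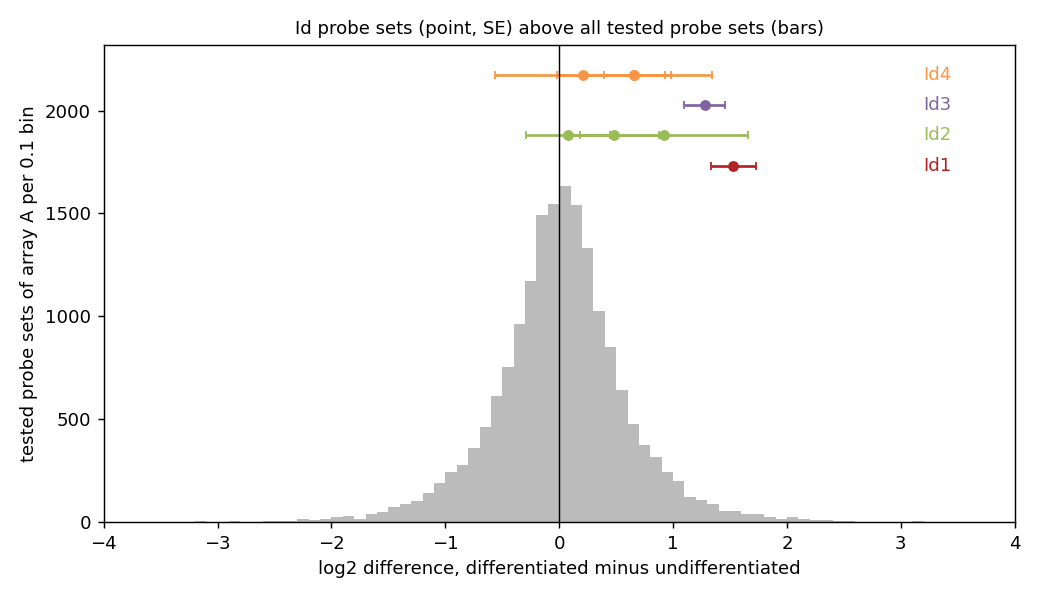
Log2 differences, differentiated minus undifferentiated (horizontal axis), of the Id probe sets as points with their SE above a histogram of the 18025 tested probe sets of array A (vertical axis, probe sets per bin). Id1 and Id3 lie near 1.5 and 1.3 in the right tail, and Id2 and Id4 spread from 0.08 to 0.92.

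RefSeq places the genes, on GRCm38.p6, at chr2:152736251-152737410 for Id1, chr12:25093799-25096092 for Id2, chr4:136143822-136145392 for Id3 and chr13:48261116-48266028 for Id4. The arrays name no build, so these positions come from the gene table and not from the probes. The 250 bases before the annotated start of Id2, Id3 and Id4, from the RefSeq table of the same build, are shown because BMP acts on Id genes through SMAD-bound elements, and because of the 3 genes, Id3 and Id4 1423260_at had groups apart and Id2 did not. No window was available for Id1, the member with the largest difference. The windows shown are those of Id2, Id3 and Id4. They read 5′ to 3′ along the gene, and span chr12:25096093-25096342 on the minus strand for Id2, chr4:136143572-136143821 on the plus strand for Id3 and chr13:48260866-48261115 on the plus strand for Id4. Capitals mark matches on either strand to the GC-rich SMAD motif GGCGCC, to the GC box GGGCGG and to TGACG, the core of the cAMP response element.
Id2 promoter: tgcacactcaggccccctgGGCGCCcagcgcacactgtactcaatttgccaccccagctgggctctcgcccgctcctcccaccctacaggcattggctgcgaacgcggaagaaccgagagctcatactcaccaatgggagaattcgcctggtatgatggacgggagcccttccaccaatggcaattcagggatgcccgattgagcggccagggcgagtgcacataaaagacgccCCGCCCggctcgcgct
Id3 promoter: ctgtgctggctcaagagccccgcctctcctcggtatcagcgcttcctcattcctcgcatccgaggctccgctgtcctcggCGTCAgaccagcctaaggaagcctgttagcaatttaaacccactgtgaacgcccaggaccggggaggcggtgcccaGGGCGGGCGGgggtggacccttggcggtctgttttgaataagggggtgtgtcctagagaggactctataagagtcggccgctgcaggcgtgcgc
Id4 promoter: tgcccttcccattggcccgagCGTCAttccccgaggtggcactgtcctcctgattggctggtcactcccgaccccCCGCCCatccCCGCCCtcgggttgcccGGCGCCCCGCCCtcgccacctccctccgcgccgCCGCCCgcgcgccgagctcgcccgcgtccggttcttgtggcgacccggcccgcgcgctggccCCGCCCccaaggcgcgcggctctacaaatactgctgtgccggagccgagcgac

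The GC-rich SMAD motif occurred once in the Id2 window, 231 bases before the start, once in the Id4 window, 148 bases before it, and 0 times in the Id3 window. It was present in 9.59% of all 32851 promoter windows of this length. GC boxes numbered 1 in Id2, 2 overlapping ones in Id3 and 5 in Id4, and 32.7% of all windows had at least 1. TGACG occurred once in Id3 and once in Id4 and not in Id2 (17.8% of windows). The paired SMAD box GTCTAGAC, the Egr1 site GCGTGGGCG and the full cAMP element TGACGTCA were each matched 0 times in the 3 windows (0.167%, 0.536% and 1.55% of all windows), and the E-box CANNTG, the element E proteins bind, occurred once, in Id2 (66.2% of windows). The windows had a GC content of 62.8%, 62.8% and 75.6% for Id2, Id3 and Id4, against a median of 52.4% over all windows. These matches describe letters in a window and do not locate a site in use.

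The E proteins that Id proteins bind were read, like every gene below, from 1 probe set, the brightest on array A that passed the filter on low signal, or on array B where none on array A passed. None of the 3 passed limma's test at an adjusted p of 0.05, where 0.923% of 16461 genes rose and 1.16% fell, and 2 of them had an unadjusted p under 0.05. Tcf12 gave 1830.1, 2016 and 2293 in D1 to D3 and 930.7, 1058 and 1299.6 in U1 to U3. Its groups did not overlap, with a difference of 0.91 ± 0.23 (SE, limma adjusted p = 0.0611), and a further array A probe set gave 1.14 while its 3 array B probe sets gave -0.35, -0.39 and -1.72. Tcf3 gave 4990.2, 4924 and 4253 against 3325, 3267 and 3683, also without overlap (0.46 ± 0.15, SE, limma adjusted p = 0.141), while its second tested probe set overlapped at 0.23 (limma adjusted p = 0.758). Tcf4 overlapped (-0.14 ± 0.37, SE, limma adjusted p = 0.912, and -0.68 against U1). Its second brightest probe set was lower without overlap (-0.54, limma adjusted p = 0.524), and its further ones overlapped, from -0.43 to 0.50.

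Of 37 tissue-specific partners of E proteins, 25 were tested, 0 rose and 0 fell by limma, and 1 had an unadjusted p under 0.05. Their median difference was 0.10, beside 0.01 over all genes tested. The member furthest from 0 was Hand2, a factor of the heart and limb, on array B, at 1229, 1422 and 413.2 against 252.9, 224.0 and 294.2 (1.81 ± 0.67, SE, limma adjusted p = 0.841). Its further probe sets did not pass the filter on low signal and overlapped, at 0.76 on array A and 0.15 on array B. Of 5 genes listed here as activated by E proteins, 0 passed by limma, 4 lay below 0, and 2 had an unadjusted p under 0.05, both lower. The furthest, Cdkn1a, which encodes the cell cycle inhibitor p21, gave 3328, 2869 and 2839 in D1 to D3 and 5643, 4981 and 3834 in U1 to U3, with groups apart and a difference of -0.66 ± 0.18 (SE, limma adjusted p = 0.0768). The other was Cdh1, encoding E-cadherin, named after its values were seen (-0.58 ± 0.14, SE, limma adjusted p = 0.0614), which passed without D1 (limma adjusted p = 0.0108). The place of Cdh1 on a list of activated genes is open to doubt, so nothing about E protein activity is read from its direction.

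Among BMP ligands, 8 of 11 were tested and 0 passed by limma, with a median difference of 0.00 and 2 at an unadjusted p under 0.05, Bmp2 and Bmp7. Bmp2 gave 1187, 495.2 and 404.7 in D1 to D3, against 13.7 and 17.8 in U1 and U2, both below the floor, and 157.3 in U3. The groups were apart, but the difference (2.45 ± 0.63, SE, limma adjusted p = 0.0692) is inexact because of the floor. With an undifferentiated mean of 5.24, under the filter's mean of 6, Bmp2 passed the filter through the differentiated RNAs. Bmp7, named after its values were seen, had a difference of 1.33 ± 0.40 (SE, limma adjusted p = 0.115). Bmp4, the ligand used with LIF in stem cell culture, ran from 504 in D1 through 1636 and 1722 in D2 and D3, and from 1108 in U1 to 3064 and 3488 in U2 and U3. Its difference was -1.02 ± 0.51 (SE, limma adjusted p = 0.383), and against U1, in the same array lot, it was 0.02. D1 and U1, the lowest for Bmp4 in their groups, were respectively the highest and the middle RNA of theirs for Id1. A link between Bmp4 and Id1 was not tested, and D1 is the RNA with a sign of lower integrity.

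All 10 BMP receptors and coreceptors were tested and 0 passed by limma, with a median of -0.22, 3 above 0 and 7 below, and 2 at an unadjusted p under 0.05, Eng lower and Rgma, named after its values were seen, higher (1.19 ± 0.41, SE, limma adjusted p = 0.841). Bmpr1a, a type I receptor, differed by 0.25 ± 0.18 (SE, limma adjusted p = 0.56), and Bmpr2, the type II receptor, by -0.31 ± 0.28 on array B (SE, limma adjusted p = 0.858). The other Bmpr1a probe sets of array A overlapped, from -0.45 to 0.22. The furthest was Eng, the coreceptor endoglin, with 277.6, 504.3 and 891.8 in D1 to D3 and 590.5, 2438 and 2434 in U1 to U3, so U1 lay within the differentiated range (-1.60 ± 0.58, SE, limma adjusted p = 0.196). Against U1 in the same lot the Eng difference was -0.24, without U1 it was -2.29 and passed (limma adjusted p = 0.0346), and its second probe set gave -0.94.

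The SMADs that carry the BMP signal were 4, of which 0 passed by limma and 3, Smad1, Smad4 and Smad5, had an unadjusted p under 0.05 with higher differentiated values. Smad4, the shared partner, gave 5098, 4902 and 5339 in D1 to D3 and 3774, 3179 and 3525 in U1 to U3 (0.55 ± 0.14, SE, limma adjusted p = 0.0693). Its groups did not overlap on any of its 3 probe sets. Smad1 gave 2804, 1806 and 2149.5 against 1444, 1049 and 1395, also without overlap (0.79 ± 0.24, SE, limma adjusted p = 0.12), and Smad5 differed by 0.56 ± 0.25 (SE, limma adjusted p = 0.302) while its other probe sets gave -0.16 on array A and -0.43 on array B. A further Smad1 probe set on array A overlapped at 1.11, with U1 and U3 below the floor. On array B Smad1 did not overlap, at 1.93. Smad9 lay below 0 (-1.16 ± 0.64, SE, limma adjusted p = 0.439), with D3 below the floor.

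Of 16 secreted or membrane antagonists of BMP, 11 were tested, 1 rose and 0 fell. The one that rose was Cer1, which encodes Cerberus, a secreted inhibitor of BMP and Nodal made by the anterior visceral endoderm. Its signal was 1594, 1357 and 1643 in D1 to D3 and 143.1, 619.6 and 68.6 in U1 to U3, with U3 below the floor, and its difference was 2.90 ± 0.62 (SE, limma adjusted p = 0.0328). Its other probe set also passed (limma adjusted p = 0.0238). At an unadjusted p under 0.05 lay also Bmper and Bambi, higher by 1.72 and 0.73, and Htra1 and Grem1, at -2.08 and -1.03, all named after their values were seen. The call ended when any of the 6 RNAs was left out (limma adjusted p from 0.0752 to 0.12) and with the lot as a block (3.41, limma adjusted p = 0.186). Among 9 intracellular inhibitors of the pathway 0 passed by limma and 1, Smad7, had an unadjusted p under 0.05. Smad7, a feedback inhibitor, gave 1839, 2197 and 3122 against 3086, 4552 and 4615, with D3 just above U1 (-0.79 ± 0.23, SE, limma adjusted p = 0.113, and -0.41 against U1).

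Other known BMP target genes numbered 16, of which 13 were tested and 0 passed by limma, with 11 above 0, 2 below, a median of 0.41, and 4 higher (Msx2, Hey1, Dlx5 and Bambi) and 1 lower (Smad7) at an unadjusted p under 0.05. Hey1, a repressor of the Hairy family, differed by 1.92 ± 0.46 (SE, limma adjusted p = 0.0536), and Dlx5 by 1.55 ± 0.66 (SE, limma adjusted p = 0.283), both named after their values were seen. For Dlx5, U1 lay below the floor, and the undifferentiated mean of 5.59 was under the filter's mean of 6. Dlx5 thus passed the filter through the differentiated RNAs. Msx2, a homeobox gene, gave 1161, 1142 and 855.1 in D1 to D3 and 162.1, 477.9 and 125.7 in U1 to U3. Its groups were apart (2.29 ± 0.54, SE, limma adjusted p = 0.0508), and its second probe set gave -0.20. Msx2 passed without U2 (limma adjusted p = 0.0281) and Hey1 without D2 (limma adjusted p = 0.0457). Of 14 tested proteins that bind Id factors or control their turnover, such as the deubiquitinase USP1, 0 passed by limma and 1 had an unadjusted p under 0.05, Anapc2, a subunit of the anaphase-promoting complex (0.44 ± 0.20, SE, limma adjusted p = 0.308). Usp1 differed by 0.15 ± 0.16 (SE, limma adjusted p = 0.724) and both were named after their values were seen. The furthest, Pax5 on array B, differed by -0.64 ± 0.29 (SE, limma adjusted p = 0.841).

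**Figure D3:**
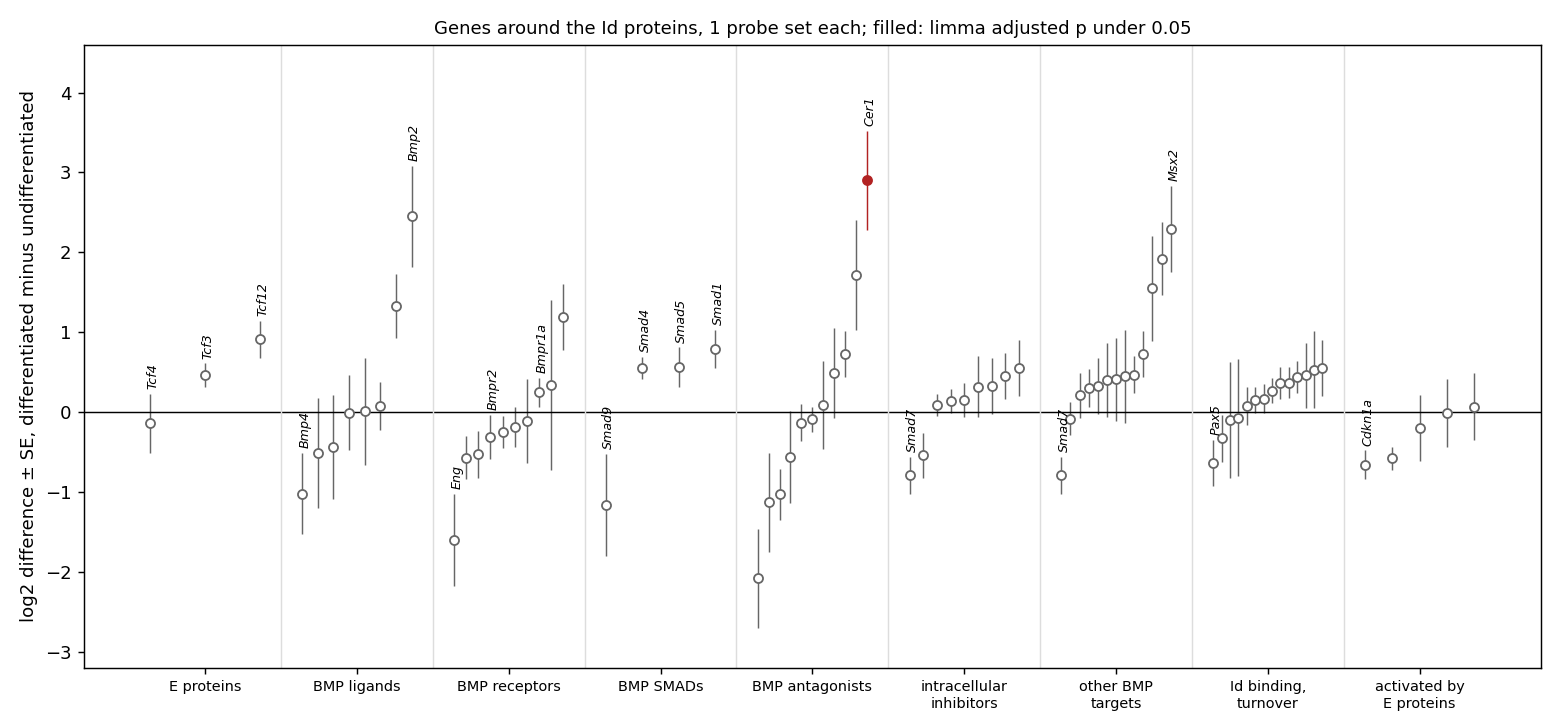
Log2 difference with its SE, differentiated minus undifferentiated (vertical axis), of the genes around the Id proteins in 9 groups by role, 1 point a gene in each group it belongs to. The tissue-specific partners of E proteins are not drawn. Cer1, the filled point at 2.90, is the single gene past an adjusted p of 0.05, and Smad1, Smad4 and Smad5 lie between 0.55 and 0.79.

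Together the lists held 120 genes, of which 97 were tested, 1 rose, 0 fell and 96 did not pass. At an unadjusted p under 0.05 limma gave 16 higher and 6 lower, in a table where 12.6% of all genes had such a p.

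Stem cell identity was checked with Pou5f1, Nanog and Sox2, factors of the pluripotent state. Pou5f1 gave 9707, 11786 and 12633 in D1 to D3 and 14016, 13703 and 13303 in U1 to U3 (limma adjusted p = 0.352), so it was bright in both groups. Nanog was 2753 in D1, against 6489 and 7574 in D2 and D3 and 6961 to 8126 in the undifferentiated RNAs (limma adjusted p = 0.43), and Sox2 differed by -0.03 (limma adjusted p = 0.961). All 10 stem cell markers lay below 0, with a median difference of -0.59, beside 0.01 over all genes tested. By limma 0 rose and 1 fell, Tdgf1, which encodes the Nodal coreceptor Cripto (-2.04), and at an unadjusted p under 0.05 lay 5 lower and 0 higher. Their mean log2 signal lay between 10.21 and 11.26 in differentiated and 11.35 and 11.66 in undifferentiated RNAs, lowest in D1. Fewer cells of a type and less RNA per cell cannot be told apart in such bulk samples.

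Markers of other cells are given beside the Id values, and their part in the result was not tested. Visceral endoderm markers, the outer layer of an embryoid body, had a mean log2 signal of 8.77 to 8.97 in differentiated and 7.14 to 7.66 in undifferentiated RNAs, and 7 of 12 tested rose and 0 fell. The defining endoderm marker Afp did not pass the filter on low signal and 3 of the 12 had an array at the floor. Among those that rose, Apoa1, named after its values were seen, had an undifferentiated mean of 5.66. That is under the filter's mean of 6, so Apoa1 passed it through the differentiated RNAs. Fibroblast feeder markers went the other way, at 8.10 to 8.76 against 9.50 to 9.67, with 6 of 15 that fell and 0 that rose, and 2 with an array at the floor. Not all of them were lower, since Dcn and Lum, named after their values were seen, lay above 0 (0.74 and 0.84). Pdgfrb and Postn were not tested. For neural progenitor markers, where Id4 is best known, 1 of 6 rose, Sox11 (1.54), and 0 fell (8.27 to 8.70 against 8.08 to 8.30), and for blood and endothelium markers 0 of 10 passed by limma, with 0 at an unadjusted p under 0.05 (7.20 to 7.65 against 7.43 to 7.74).

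Likeness to each Id gene was measured on array A as the root mean square difference over the 6 RNAs between log2 signals centred on their own mean, using the brightest Id probe set. With 18025 probe sets and 6 RNAs close profiles are to be found for most shapes, so the names below are a description. The order of RNAs and the gap between groups that they share with an Id gene largely follow from this choice. Closest to Id1 was Sox17, a transcription factor of endoderm, at 0.12, with signals of 2595, 1839.9 and 2021 in D1 to D3 and 787.5, 582.2 and 986.4 in U1 to U3. Like Id1, it was highest in D1 and lowest in U2, and it is also one of the visceral endoderm markers above. Rnase4, a secreted ribonuclease, was also among the closest (0.15), and 24 probe sets of other genes lay within 0.25.

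Closest to Id3 were Foxo3, a forkhead factor, Ttc3, a ubiquitin ligase, and Hhex, a homeobox factor of the anterior visceral endoderm, each at 0.11, with 69 within 0.25. Hhex gave 2734, 2138 and 2086 in D1 to D3 and 1201, 892.7 and 1088 in U1 to U3, groups apart. For Id2 1422537_a_at they were Cdc23, a subunit of the anaphase-promoting complex (0.15), Prodh, a proline dehydrogenase (0.16), and Trim41, a ubiquitin ligase (0.16), all with D2 the lowest differentiated RNA. For Id4 1423260_at they were Cstb, a cysteine protease inhibitor (0.05), Tmcc2 (0.06) and Tubg1, which encodes gamma-tubulin (0.07). As many as 1067 probe sets lay within 0.25 of the Id4 profile, so its shape is a common one.

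**Figure D4:**
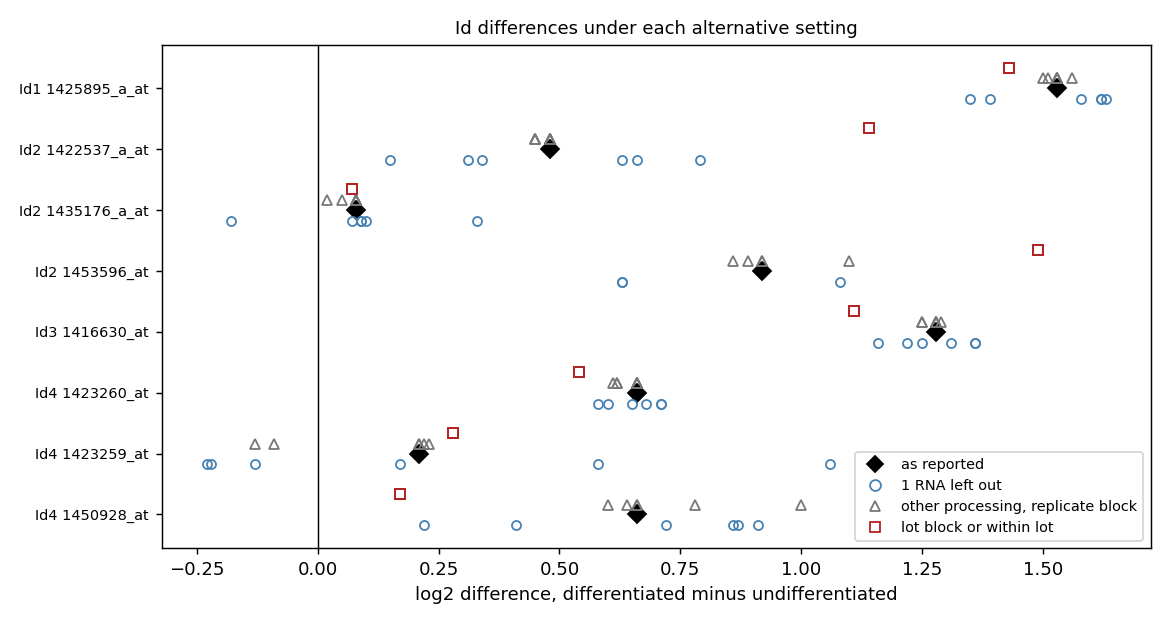
Log2 difference, differentiated minus undifferentiated (horizontal axis), of each Id probe set as reported (black diamond) and under the alternatives tried, with 1 RNA left out (circles), other processing (triangles) or the array lot taken into account (squares). Id1 stays between 1.35 and 1.63 and Id3 between 1.11 and 1.36, while Id2 1435176_a_at and Id4 1423259_at reach both sides of 0.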

How the data were processed

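RNA from 6 RNAs was measured once on each of 2 array types. The value tables hold MAS5 signal intensity as deposited by the authors, on a linear scale, with MAS5 named in the submitters' processing notes. The MAS5 version, the scaling target and any build were not given in the sources used here. Array lot and fluidics station are other values, read from the array settings files that the authors deposited. Arrays were rescaled so that the 2% trimmed mean was 500, floored at 32 and put on the log2 scale. Control probe sets and those with a mean log2 signal under 6 were left out, leaving 18025 on array A and 20344 on array B. Differences were fitted per array type with limma 3.58.1 (intensity trend, two-sided, Benjamini-Hochberg adjustment, threshold 0.05) in R 4.3.3, without covariates. The fit was tested on simulated data. Each gene used 1 probe set naming it alone, the brightest that passed the filter on array A or, where none did, on array B.

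The Id members, the gene lists and the tests were chosen with earlier results of these data known. Named genes were the Id genes, 12 fixed genes of the pathway and of stem cell identity, for each pathway list the called genes (up to 4 of largest difference a direction) or else the member furthest from 0, and the 3 genes most like each Id gene. One of the genes most like Id1 is not reported here. Others were named after their values were seen, as stated beside them. The number of arrays limits the precision. A comparison of Id protein sequences was planned and not made here. Marker lists are given as counts and ranges.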

Additional observations from a re-analysis of the deposited data

How the results depend on the processing

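For the 8 Id probe sets, 111 of 113 values under alternative settings moved by less than the spread between RNAs. Stability is not read from this count, because the filter settings and the replicate block cannot change a mean difference. The values within lot 1 also repeat those of the lot block. The other 2 are those of Id2 1422537_a_at, 1.14 both with the lot as a block and within lot 1, where U1 alone sets the undifferentiated level. Signs turned, with overlapping groups, for Id2 1435176_a_at (lowest -0.18, without D3) and for Id4 1423259_at (lowest -0.23, without D2, and above 0 in 9 of 14 settings). Of all genes, 343 were called, against 209 with median centring, 120 without the filter, 56 without the intensity trend and 76 with the lot or station block, and 129 to 326 with 1 RNA left out (leaving out D2 gave 227, D3 gave 209, U2 gave 148 and U3 gave 129). On the pathway lists the single call, Cer1, became 0 with median centring, without the filter, without the trend and with the lot or station block, and an offset of 16 gave 3 (Cer1, Bmp2 and Msx2, 1 each for BMP antagonists, ligands and other targets). With 1 RNA left out these lists gave 0 to 1 in all, 0 for BMP antagonists and 0 to 1 for receptors, other targets and genes activated by E proteins. Same-numbered RNAs deviated from their group means with correlations of 0.157, 0.012 and 0.073 on array A and 0.183, 0.097 and 0.118 on array B, not all over 0.1 on either. On array B, but not on array A, every RNA correlated best with its own number, a hint from the data and not the design, since the labels do not say what the number marks. The replicate block gave 466 genes and 8 on the lists. These were 1 ligand (Bmp4), 1 receptor (Eng), 2 antagonists (Cer1 and Htra1) and 2 listed as activated by E proteins (Cdkn1a and Cdh1). They also held 1 intracellular inhibitor and 2 other targets (Smad7, in both, and Msx2). The cause of these changes was not tested. Differences of probe sets with an array at the floor are limited by their dimness.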
